A study of Homo sapiens with 40 samples.

Results

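The genes described here are the long noncoding RNA H19, the growth factor gene IGF2 that lies next to it, the receptor gene IGF2R, and the 3 genes of the IGF2 mRNA-binding proteins, IGF2BP1, IGF2BP2 and IGF2BP3. They were chosen by gene name, after H19 had been seen to rise strongly with EGF at 24 h in BT474 cells, so that contrast (EGF against vehicle, 24 h, BT474) is given below as values with no test for any of the 6 genes. All 6 names were found among the 44584 rows of the count table. Poly(A) RNA sequencing had been run on BT474, a HER2-overexpressing breast cancer line that is sensitive to the HER2 antibody trastuzumab, and on BT474R, a single resistant clone (clone 5) that had been grown out of BT474 in trastuzumab. Both lines were starved in medium with 0.1% serum, and T0 samples were collected at the end of starvation. The remaining cells received EGF (epidermal growth factor, 50 ng/mL), HRG (heregulin, 10 ng/mL) or water as the vehicle, and were collected after 1 h, 12 h or 24 h. Each of the 20 groups (10 per line) had 2 libraries, 40 in all, with 16794594 to 33387936 counts per library. Because BT474R was 1 clone, resistance and any other property of that clone cannot be told apart, and the methods describe duplicate treatments of plated cells without saying whether duplicates came from separate passages or days, so p-values measure only the spread between these libraries, which may be technical.

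H19 and IGF2 are imprinted neighbours on chromosome 11. In normal tissue H19 is made from the maternal copy and IGF2 from the paternal copy, and both are high in the fetus and placenta and low in most adult tissues. The choice between them is set by a control region upstream of H19, where the insulator protein CTCF binds the unmethylated maternal copy. The H19 transcript also carries the hairpin of the microRNA miR-675. IGF2 protein signals through the IGF1 and insulin receptors, whereas IGF2R, which also carries mannose 6-phosphate-tagged enzymes to lysosomes, takes IGF2 up and clears it. The IGF2BP proteins are different again: they bind messenger RNAs, IGF2 and MYC among them, and affect their stability, translation and location, and they should not be confused with the IGFBP proteins, which bind the IGF proteins outside the cell.

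In the RefSeq annotation of GRCh38.p14, H19 spans chr11:1995176-2001266 and IGF2 spans chr11:2129117-2149566, 128 kb apart, both read from the minus strand. GENCODE v44 extends H19 further upstream. The remaining genes lie on other chromosomes, IGF2R at chr6:159969082-160111504, IGF2BP1 at chr17:48996558-49056145, IGF2BP2 at chr3:185643130-185825042 and IGF2BP3 at chr7:23310209-23470491. The sequences below come from RefSeq (GRCh38.p14) and the hg38 assembly and show the start of the H19 gene, the motif of the upstream control region that H19 and IGF2 share, and the microRNA inside H19. Of the 6 genes, 4 had an entry in the RefSeq promoter table (250 bases before and 50 after the start), IGF2 and IGF2BP1 being the other two. The first line is the H19 promoter at chr11:2001217-2001516, minus strand, with the transcribed bases in capitals. The second is the CTCF core motif, in capitals, as found, on the minus strand, at 3 places upstream of the RefSeq start of H19, chr11:2002213-2002226, chr11:2002614-2002627 and chr11:2003019-2003032, with 3 flanking bases on each side in lower case. The last 2 are the mature arms of miR-675, with the seed (bases 2 to 8) in capitals.
H19 promoter: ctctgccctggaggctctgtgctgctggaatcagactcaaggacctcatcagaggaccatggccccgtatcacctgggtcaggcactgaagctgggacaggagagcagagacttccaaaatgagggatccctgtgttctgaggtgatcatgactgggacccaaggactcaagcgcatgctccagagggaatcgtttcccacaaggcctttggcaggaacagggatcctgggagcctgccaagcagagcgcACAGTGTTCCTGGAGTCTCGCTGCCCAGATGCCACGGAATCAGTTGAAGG
CTCF core upstream of H19: tggCCGCGCGGCGGCAGtgc
hsa-miR-675-5p: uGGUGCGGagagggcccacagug
hsa-miR-675-3p: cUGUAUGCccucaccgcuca
The 3 CTCF matches had the same 20 letters and lay 947, 1348 and 1753 bases upstream of the start, outside the RefSeq gene but inside the longer GENCODE one. Searched on both strands, the motif was present in the 5000 bases upstream of 0.179% of 35116 promoter entries. The H19 promoter itself held none of the other motifs searched on both strands, an E-box CACGTG (in 7.26% of promoters of this length), an AP-1 site TGACTCA (4.95%), a TATA box TATAAA (11.5%), or the E2F sites TTTGGCGC (0.652%) and TTTCGCGC (0.515%). The GC box GGGCGG, which was in 45% of promoters and not in that of H19, was found 6 times in the IGF2R promoter and 7 times in 1 of the 2 IGF2BP2 promoters, and the E-box 3 times in that of IGF2R and 2 times in that of IGF2BP3.

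H19 RNA was far higher in BT474R than in BT474 in every group. In starved cells at T0 it was at 7.89 and 6.94 CPM (204 and 142 counts) in the 2 BT474 libraries, and at 2521 and 2423 CPM (42010 and 51772 counts) in the 2 BT474R libraries, where CPM is the count scaled to the size of the library, with TMM factors over all 40 libraries. No library of either line came near the range of the other, since BT474 spanned 4.07 to 81.0 CPM and BT474R spanned 2287 to 9620 CPM. H19 was thus 331-fold higher in BT474R at T0 (log2 8.37 ± 0.23 SE, adjusted p = 8.96e-27), and 281-fold (1 h), 547-fold (12 h) and 610-fold (24 h) higher in the vehicle. The 24 h vehicle of BT474 is also part of the contrast that chose H19. In BT474R, H19 made up 0.227 to 0.900% of all counts, ranking 10 among all rows by its median CPM, against rank 10189 in BT474. In such bulk libraries fewer expressing cells and less RNA per cell cannot be told apart.

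**Figure D1:**
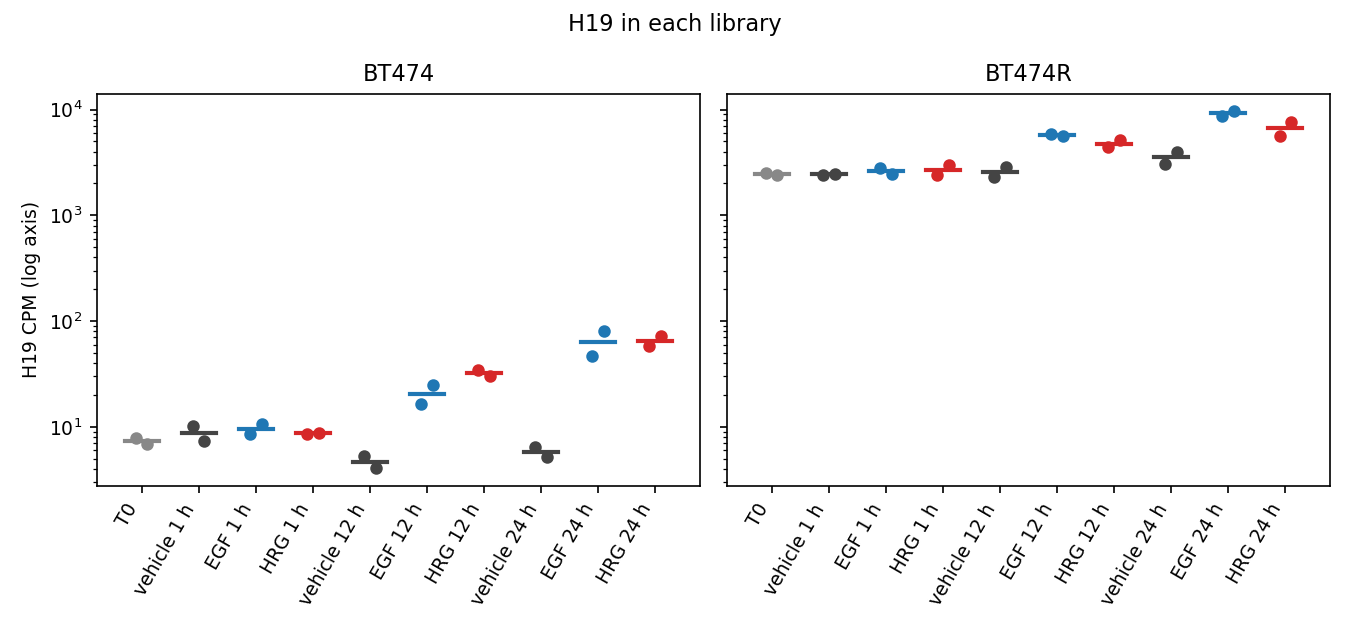
H19 level in CPM (log axis) in each library of BT474 (left) and BT474R (right); points are libraries, horizontal bars the means of 2. BT474 libraries lie between 4.07 and 81.0 CPM and BT474R libraries between 2287 and 9620 CPM, and in both lines the 12 h and 24 h ligand groups lie above their vehicle.

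IGF2 RNA followed the same split more sharply. In BT474 the gene had 0, 1 or 2 counts per library, 11 reads in all over 20 libraries, which is at or under the 3 counts per library taken here as the limit of detection. In BT474R it had 2125 to 5617 counts, or 98.2 to 208 CPM. Set against the 3-count limit in BT474, IGF2 was at least 838-fold higher in BT474R at T0 (2125 and 2532 counts against 1 and 1, adjusted p = 1.44e-24) and at least 759-fold (1 h), 1032-fold (12 h) and 964-fold (24 h) higher in the vehicle. The 2 genes did not keep a constant ratio between the lines, since BT474R had 3.37 IGF2 reads for every 100 H19 reads (2.03 to 5.06 by library) and BT474 had 0.0973.

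IGF2R and IGF2BP1 differed between the lines far less. IGF2R was at 205 and 196 CPM in BT474 and 239 and 264 CPM in BT474R at T0, and was higher in BT474R in all 4 comparisons, by log2 0.33 ± 0.09 at T0 (adjusted p = 0.00182), 0.40 and 0.31 in the vehicle at 1 h and 12 h, and 0.63 ± 0.09 at 24 h (adjusted p = 7.19e-08). The T0 difference in IGF2R lost its call when either replicate 2 of BT474 T0 (log2 0.27) or replicate 2 of BT474R T0 (0.21) was left out. IGF2BP1 had 21 to 81 counts per library. At T0 it was at 1.24 and 1.37 CPM in BT474 and 2.34 and 2.71 CPM in BT474R (log2 0.97 ± 0.28, adjusted p = 0.00347), it was also higher in BT474R in the vehicle at 24 h (0.75 ± 0.25, adjusted p = 0.0111), and at 1 h and 12 h the values were 0.11 and 0.50 with no call. Both IGF2BP1 calls rested on single libraries, as the T0 value fell to 0.86 without replicate 1 of BT474 T0 and 0.81 without replicate 2 of BT474R T0, and the 24 h value to 0.47 without replicate 1 of the BT474 vehicle and 0.62 without replicate 1 of the BT474R vehicle, none of which were called. IGF2BP2 (0 to 22 counts) and IGF2BP3 (0 to 6 counts) were close to the detection limit in both lines and gave no call. Between the lines 46.9% of the 24641 genes tested were called at T0, 50.2% in the vehicle at 1 h, 49.0% at 12 h and 49.3% at 24 h, beside 4, 3, 3 and 4 of the 6 genes, so these counts were near the background.

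Per kilobase of exon (GENCODE v44 exon union), the order of the genes also changed between the lines. The median level of IGF2R was 9.49 RPKM in BT474, above H19 at 2.72 RPKM and IGF2BP1 at 0.191 RPKM, while IGF2 was at 0.00243 RPKM. In BT474R, H19 came first with a median of 878 RPKM, followed by IGF2 with 18.6 RPKM and IGF2R with 12.1 RPKM, and the ranges of IGF2 (13.7 to 29.0) and IGF2R (10.6 to 15.7) overlapped. IGF2BP1 was next at 0.260 RPKM, and the medians of IGF2BP2 and IGF2BP3 stayed under 0.03 RPKM in both lines. The annotation used for counting is not given, so its exon lengths may differ from the GENCODE v44 lengths. The order of IGF2 and IGF2R in BT474R depends on that choice of lengths.

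**Figure D2:**
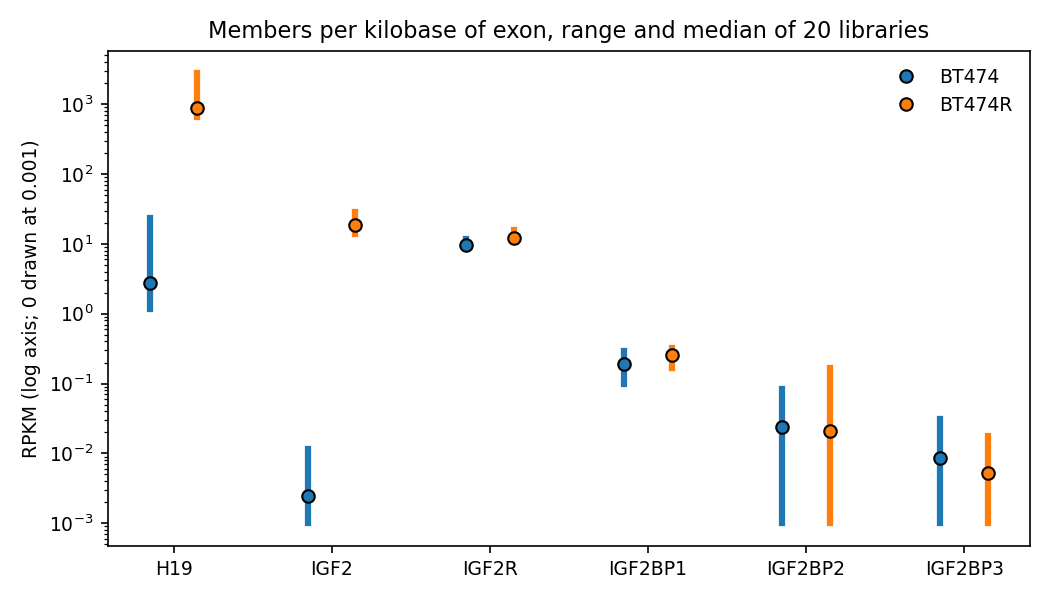
Level per kilobase of exon (RPKM, log axis, 0 drawn at 0.001) of the 6 genes in BT474 (blue) and BT474R (orange); lines span the 20 libraries of a line and dots mark the median. H19 moves from a median of 2.72 to 878 RPKM and IGF2 from 0.00243 to 18.6 RPKM, whereas IGF2R moves from 9.49 to 12.1 RPKM.

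Other rows of the table bear on how these levels were counted. A row named H19_1, which repeats the gene name with a number, held 5.21% as many reads as H19 in BT474 and 5.26% in BT474R, and moved with it. An unplaced row, LOC102724852, held 3.57 to 3.83% as many reads as H19 in every BT474R library and 3.78% over all BT474 libraries. Neither the annotation release nor the handling of multi-mapped reads and strand is given in the sources used here, so reads shared between these rows and H19 cannot be told apart. RefSeq also draws the opposite-strand gene MRPL23 across H19, at chr11:1947332-2014944, and its counts were low in both lines (60 to 108 in BT474 and 78 to 140 in BT474R). MIR675 had no count in any library, from a poly(A) library that is not built to hold microRNAs. The antisense gene IGF2-AS had 1 read in BT474 and 2 to 21 counts in every BT474R library (at least 3.80-fold higher at T0, adjusted p = 3.48e-04), and INS-IGF2, a readthrough gene that shares the IGF2 exons, had 1 read in all. RefSeq draws INS-IGF2 across all of IGF2, at chr11:2129117-2161209. How reads on exons of both genes were counted is not given, so the IGF2 counts may be too low.

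The labelled breast epithelial identity was visible in both lines, in which all 9 luminal markers (ERBB2, KRT8, CDH1 and others) had a median over 1 CPM. GATA3, a luminal transcription factor, was nevertheless at 10.6 to 55.5 CPM in BT474R against 307 to 546 CPM in BT474. In BT474, 1 of 5 basal, 1 of 4 endothelial and 1 of 5 immune markers also had a median over 1 CPM. In BT474R the numbers were 2, 2 and 1. Medians in BT474 and BT474R were 5.91 and 1.49 CPM for TP63, 0.909 and 1.15 for MYH11, and 16.0 and 11.5 for VWF. They were 0.978 and 5.38 CPM for CDH5 and 2.22 and 1.95 CPM for CD68. Of the 7 fibroblast markers, 4 in BT474 and 3 in BT474R never passed 3 counts. COL1A1 was the exception, at 75.0 to 105 CPM in BT474 and 169 to 295 CPM in BT474R, and carried nearly all of the summed fibroblast signal of 75.2 to 105 and 170 to 295 CPM. The others were low, with at most 19 counts for COL3A1 (median 0.149 CPM in BT474 and 0.382 CPM in BT474R) and at most 4 counts for COL1A2, PDGFRA, DCN, LUM and PDGFRB. Medians of COL1A2 and PDGFRA were also higher in BT474R and that of LUM was lower, but none passed 0.0636 CPM. At so few counts no direction is read from them. DCN and LUM had no count in any BT474R library. The part of the marker genes in the H19 and IGF2 difference was not tested.

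Both ligands raised H19 in both lines, late and not early. In BT474 at 12 h, H19 was at 5.24 and 4.07 CPM with vehicle, 16.4 and 24.8 CPM with EGF and 34.8 and 30.1 CPM with HRG. Every ligand library lay above both vehicle libraries. The rise was 4.32-fold with EGF (log2 2.11 ± 0.22, adjusted p = 2.73e-09) and 6.75-fold with HRG (2.75 ± 0.21, adjusted p = 1.64e-13). At 24 h the vehicle libraries were at 6.49 and 5.16 CPM and the HRG libraries at 58.6 and 72.3 CPM, an 11.1-fold rise (3.48 ± 0.19, adjusted p = 2.67e-17). With EGF at 24 h, the contrast on which H19 was selected, the libraries were at 47.1 and 81.0 CPM, a fitted log2 value of 3.46 ± 0.19 for description alone, and the HRG comparison used the same vehicle libraries. At 1 h the vehicle libraries (10.2 and 7.35 CPM) overlapped those with EGF (8.57 and 10.6) and HRG (8.64 and 8.70), and the log2 values were 0.11 ± 0.22 and -0.02 ± 0.24 with no call.

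In BT474R, where H19 started far higher, the fitted fold rise was smaller, while the rise in CPM was larger. The test of the difference in fold, given below, called it for HRG at 12 h and 24 h and not for EGF at 12 h. At 12 h the vehicle libraries were at 2287 and 2856 CPM, the EGF libraries at 5920 and 5626 CPM and the HRG libraries at 4386 and 5137 CPM. EGF raised H19 by log2 1.17 ± 0.14 (2.24-fold, adjusted p = 2.41e-06) and HRG by 0.87 ± 0.13 (1.83-fold, adjusted p = 2.96e-04). At 24 h the vehicle libraries were at 3066 and 3977 CPM, the EGF libraries at 8775 and 9620 CPM and the HRG libraries at 5569 and 7679 CPM, with log2 values of 1.38 ± 0.14 (2.61-fold, adjusted p = 1.55e-07) and 0.92 ± 0.13 (1.90-fold, adjusted p = 6.07e-04). Again no ligand library reached down to a vehicle library at 12 h or 24 h, and at 1 h the values were 0.11 and 0.15 with no call. The HRG call at 24 h was lost when only the libraries of those 2 groups entered the fit (adjusted p = 0.828), a setting that called 0 genes in all. The 2 HRG libraries at 24 h in BT474R were the least alike of all 20 pairs, with a median chi-square of 2.56 per gene where counting noise alone gives 0.455.

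**Figure D3:**
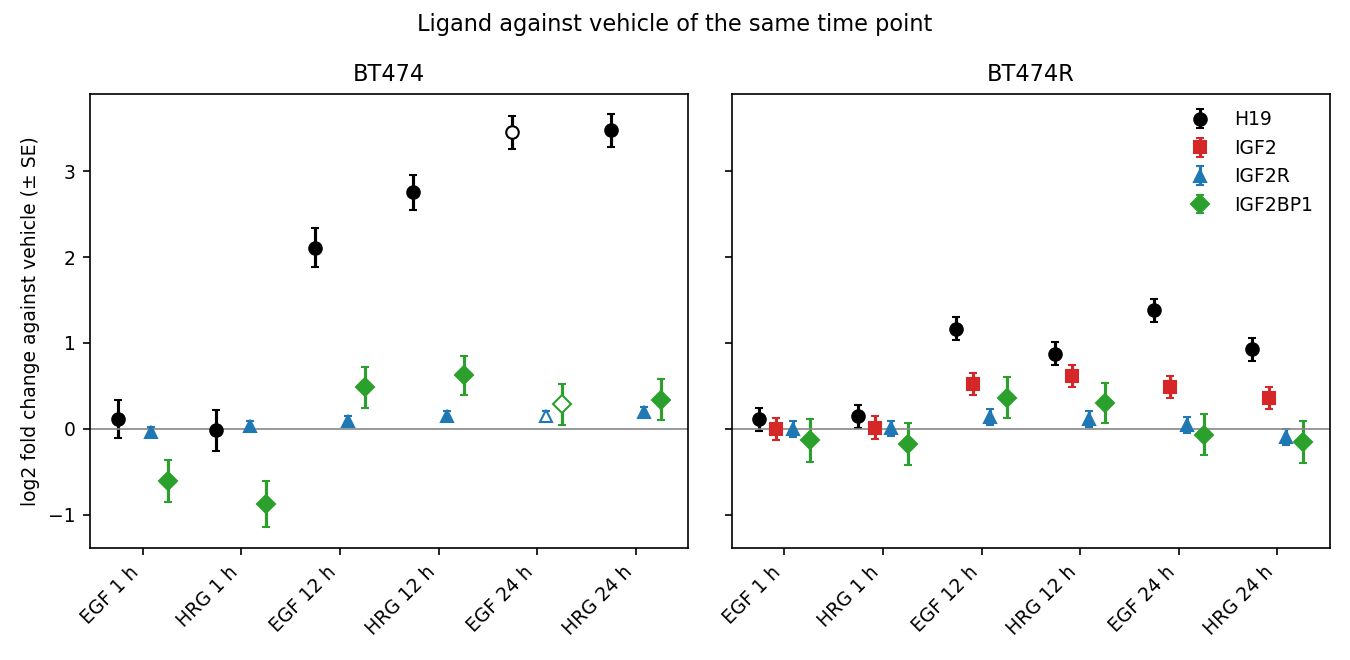
Log2 fold change against the vehicle of the same time point (± SE) for H19, IGF2, IGF2R and IGF2BP1 in BT474 (left) and BT474R (right); IGF2 is not drawn in BT474, where it was at the detection limit. Open symbols mark EGF at 24 h in BT474, the contrast that H19 was selected on. H19 lies near 0 at 1 h and at 0.87 to 3.48 at 12 h and 24 h, and IGF2 in BT474R at 0.36 to 0.61.

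The ligand responses of H19 were set against each other in 3 ways. First, the effect of HRG was smaller in BT474R than in BT474 on the log2 scale, by 1.90 ± 0.31 at 12 h (adjusted p = 1.24e-04) and by 2.59 ± 0.29 at 24 h (adjusted p = 1.36e-07). The 24 h test used the BT474 vehicle libraries that are also part of the contrast that chose H19. For EGF at 12 h the difference of -0.96 ± 0.32 was not called (adjusted p = 0.148), and at 24 h it was -2.08, which holds the selecting contrast and has no test. Second, HRG was above EGF in BT474 at 12 h (log2 0.64 ± 0.17, adjusted p = 0.0272) and below EGF in BT474R at 24 h (-0.46 ± 0.13, adjusted p = 0.0497). Both of these calls were close to the threshold. The first was lost with DESeq2 (adjusted p = 0.288), with the filterByExpr filter (0.0679) and without replicate 1 of EGF at 12 h (log2 0.36), replicate 1 of HRG (0.55) or replicate 2 of HRG (0.74), and the second with DESeq2 (0.131), with the filterByExpr filter (0.0574) and without replicate 1 of HRG at 24 h (-0.26) or either EGF library (-0.51 and -0.40). In BT474 at 24 h the 2 ligands gave 0.02 ± 0.14 for H19, a description only, and this value was -0.34 or 0.46 depending on which EGF library was left out. Last, the HRG effect did not pass the test of a change from 12 h to 24 h in BT474 (0.72 ± 0.31, adjusted p = 0.325), nor did EGF (0.22) or HRG (0.05) in BT474R, and the EGF value in BT474 was 1.34, a description only. The test of the HRG change in BT474 also used the 24 h vehicle libraries of the contrast that chose H19. H19 also drifted without ligand in BT474R, where the 24 h vehicle was above T0 by log2 0.52 ± 0.13 (adjusted p = 0.0113). That call was lost without replicate 2 of the 24 h vehicle (0.31) or without either T0 library (0.55 and 0.50). In BT474 the 12 h and 24 h vehicles were below T0 by -0.67 ± 0.26 and -0.37 ± 0.26 with no call. That 24 h vehicle is part of the contrast that chose H19.

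Ordered by mean CPM, the groups of BT474R all lay above those of BT474. In BT474R the order was EGF 24 h (9198 ± 597 SD, n = 2), HRG 24 h (6624 ± 1492), EGF 12 h (5773 ± 209), HRG 12 h (4762 ± 531) and vehicle 24 h (3522 ± 644), followed by the 1 h ligand groups, the 12 h and 1 h vehicles and T0, which overlapped one another at 2447 to 2699 CPM. The HRG 24 h and EGF 12 h groups did not separate, and the other neighbours down to the 24 h vehicle did. In BT474 the HRG 24 h (65.4 ± 9.71) and EGF 24 h (64.1 ± 23.9) groups overlapped, HRG 12 h (32.5 ± 3.33) and EGF 12 h (20.6 ± 5.93) stood apart from each other and from all others, and the 1 h groups, T0 and the later vehicles lay at 4.66 to 9.56 CPM. Among these the 3 groups at 1 h overlapped one another, as did the 12 h and 24 h vehicles, and T0 lay above both of these and overlapped the 1 h vehicle.

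IGF2 rose with the ligands in BT474R, by less than H19. At 12 h its vehicle libraries were at 108 and 139 CPM, the EGF libraries at 175 and 181 CPM and the HRG libraries at 176 and 208 CPM. The log2 values were 0.52 ± 0.13 for EGF (adjusted p = 0.00855) and 0.61 ± 0.13 for HRG (adjusted p = 0.00590). At 24 h, vehicle was at 115 and 158 CPM, EGF at 178 and 202 CPM (0.48 ± 0.13, adjusted p = 0.0108) and HRG at 153 and 193 CPM, where the libraries overlapped those with vehicle and the value of 0.36 ± 0.13 was not called (adjusted p = 0.162). At 1 h all 6 libraries lay between 98.2 and 112 CPM. The IGF2 calls were fragile with 2 libraries a group. The EGF value at 12 h became 0.37, 0.54 and 0.51 with no call without vehicle replicate 1, EGF replicate 1 and EGF replicate 2. The HRG value at 12 h became 0.47 without vehicle replicate 1 and 0.52 without HRG replicate 2, and lost its call when only its own 2 groups were fitted (adjusted p = 0.0886). At 24 h the EGF value became 0.27 without vehicle replicate 1 and 0.40 without EGF replicate 2, neither of them called, and the HRG value became 0.62 without vehicle replicate 2 and 0.50 without HRG replicate 1, both of them called. In BT474 the ligands left IGF2 at 0 to 2 counts in every library, so any response there was not detectable at this depth, and the responses of the lines could not be compared.

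**Figure D4:**
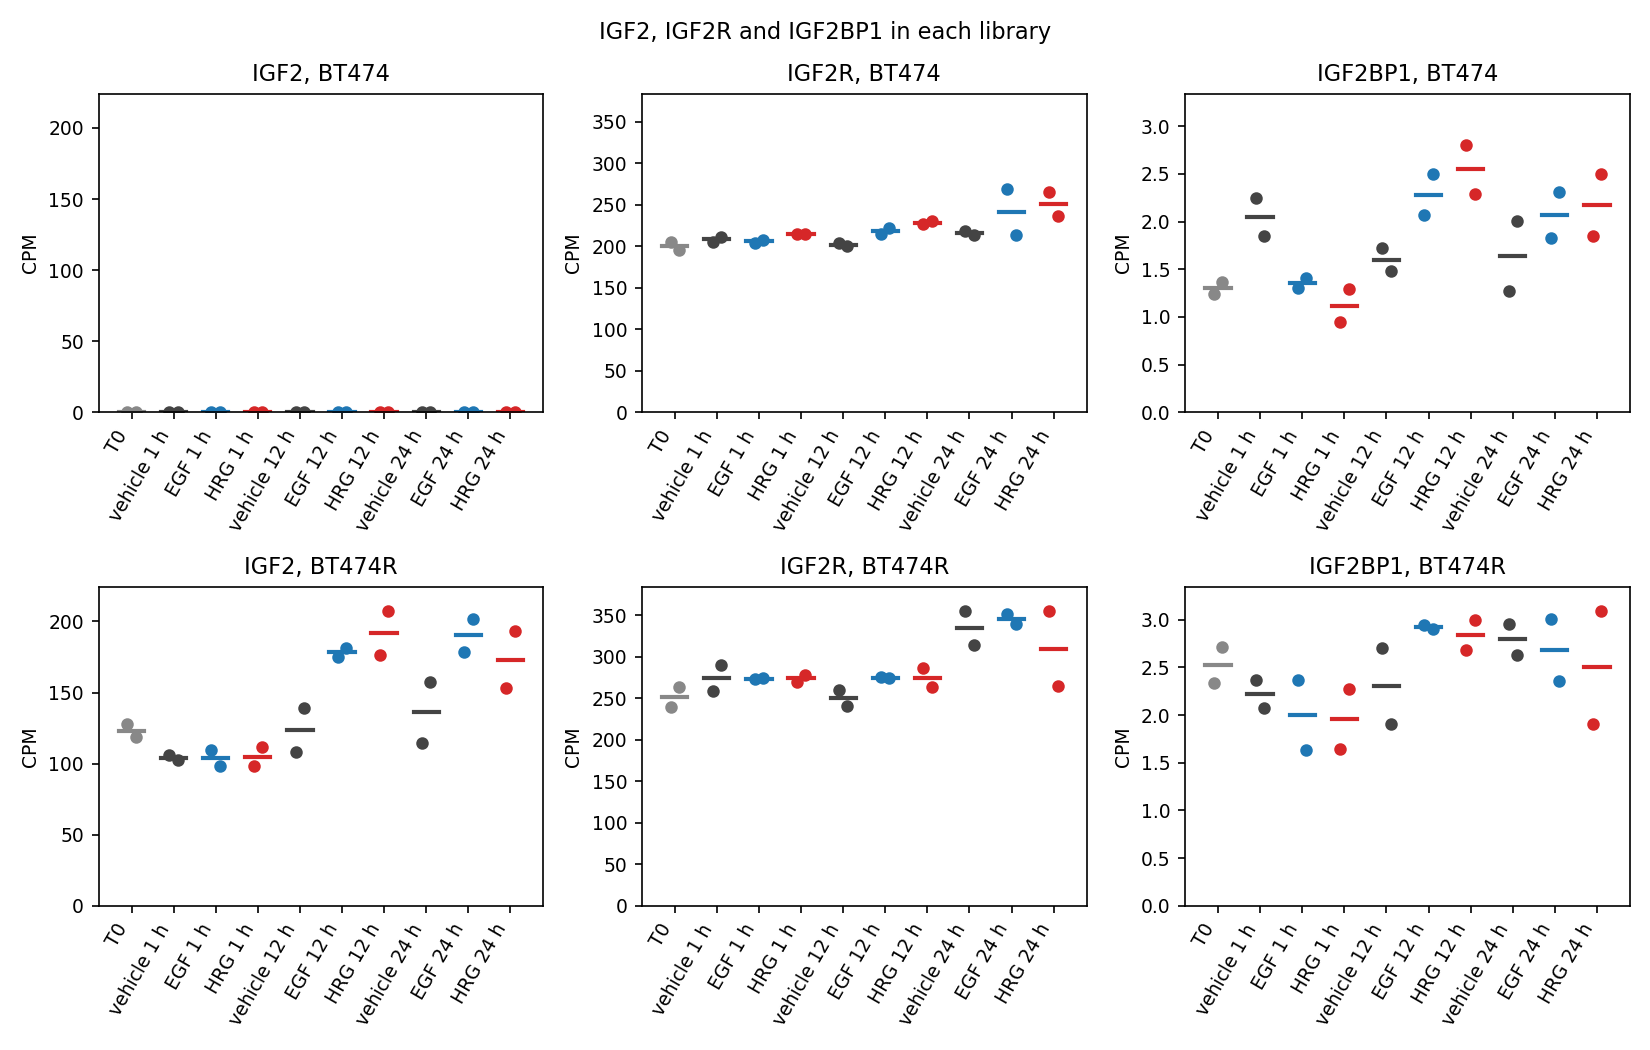
CPM of IGF2, IGF2R and IGF2BP1 (columns) in each library of BT474 (top) and BT474R (bottom), each gene on the same axis in both lines; points are libraries and bars the means of 2. IGF2 is at 0 in BT474 on this scale and at 98.2 to 208 CPM in BT474R, IGF2R lies between 196 and 356 CPM, and IGF2BP1 between 0.950 and 3.10 CPM.

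IGF2R rose slightly with HRG in BT474, and no ligand comparison of BT474R passed the test. In BT474 the vehicle was at 204 and 200 CPM and HRG at 227 and 230 CPM at 12 h (log2 0.15 ± 0.06, adjusted p = 0.0477), and at 24 h vehicle was at 219 and 214 CPM and HRG at 266 and 236 CPM (0.19 ± 0.06, adjusted p = 0.00743). The 12 h call was lost when any 1 of its 4 libraries was left out (0.14 to 0.17), and the 24 h call without HRG replicate 1 (0.10) or vehicle replicate 2 (0.18). Both were lost when both lines were fitted together (adjusted p = 0.144 and 0.0686). EGF gave 0.10 ± 0.06 at 12 h with no call, although both EGF libraries (215 and 222 CPM) lay above both vehicle libraries and the value was called when only those 2 groups were fitted (adjusted p = 0.0362), and at 24 h its libraries were at 268 and 214 CPM, 1 above and 1 within the vehicle range. In BT474R the ligand values of IGF2R ran from -0.10 to 0.13 with no call. At 12 h the EGF libraries (276 and 274 CPM) and the HRG libraries (286 and 263 CPM) nevertheless lay above both vehicle libraries (260 and 241 CPM), and the EGF value of 0.13 was called when only those 2 groups were fitted (adjusted p = 0.00469). Without replicate 1 of HRG at 24 h the 24 h HRG value became -0.35 with an adjusted p of 0.00305, and its difference from BT474 went from -0.33 (adjusted p = 0.153) to -0.54 (adjusted p = 5.89e-04). Under vehicle alone IGF2R in BT474R went from 239 and 264 CPM at T0 to 356 and 314 CPM at 24 h (0.42 ± 0.09, adjusted p = 0.00335), a call that was lost without replicate 1 of T0 (0.36) or of the vehicle (0.33).

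The IGF2BP genes were low throughout. IGF2BP1, in BT474, was at 1.72 and 1.48 CPM with vehicle and 2.80 and 2.29 CPM with HRG at 12 h (log2 0.62 ± 0.23, adjusted p = 0.0373). The call was lost with DESeq2 (adjusted p = 0.123) and without vehicle replicate 1 (0.73), vehicle replicate 2 (0.53) or HRG replicate 1 (0.50). At 1 h in BT474 the order was the opposite, with 2.24 and 1.85 CPM in vehicle, 0.950 and 1.29 CPM with HRG (-0.88 ± 0.27, adjusted p = 0.0815) and 1.30 and 1.41 CPM with EGF (-0.61 ± 0.25, adjusted p = 0.309), and neither passed the test. In BT474R the ligand values of IGF2BP1 ran from -0.18 to 0.36 with no call. IGF2BP2 was called once, with EGF at 24 h in BT474R, where it had 14 and 22 counts against 3 and 0 in vehicle (at least 5.34-fold above the 3-count limit, adjusted p = 0.00704). Leaving out vehicle replicate 2 or EGF replicate 2 ended that call (adjusted p = 0.0548 and 0.0630). HRG in the same line and time gave 2 and 9 counts. IGF2BP3 had at most 6 counts in a library and no call in any comparison.

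The number of the 6 genes called in each ligand comparison can be set beside the share of all genes called. In BT474 it was 0 of 6 at 1 h with either ligand, where 2.19% (EGF) and 2.77% (HRG) of 25146 genes were called, 1 (H19) with EGF at 12 h against 16.0%, 3 (H19, IGF2R and IGF2BP1) with HRG at 12 h against 25.8%, and 2 (H19 and IGF2R) with HRG at 24 h against 24.1%. With EGF at 24 h the background was 16.4%, and nothing is read from it since that contrast chose H19. H19 was in the set because of its rise with EGF in BT474, and HRG at 24 h shared the vehicle of that contrast. No excess over the background is therefore read from the BT474 counts that hold H19. In BT474R it was 0 of 6 at 1 h (0.457% with EGF and 0.169% with HRG of 24287 genes), 2 (H19 and IGF2) with EGF at 12 h against 12.0%, the same 2 with HRG at 12 h against 4.12%, 3 (H19, IGF2 and IGF2BP2) with EGF at 24 h against 17.3%, and 1 (H19) with HRG at 24 h against 2.78%. None of the 6 was called lower with a ligand. Between HRG and EGF, H19 alone was called, in BT474 at 12 h (background 2.17%) and BT474R at 24 h (5.18%), with none called at 1 h in BT474 (0.139%), none of the other 5 at 24 h in BT474 (0.768%), where H19 is a description only, and none at 1 h and 12 h in BT474R (0.0494% and 1.42%). Against T0, none of the 6 was called in the BT474 vehicle at 1 h, 12 h or 24 h (6.61%, 6.41% and 11.4% of all genes). The H19 vehicle libraries of BT474 at 12 h and 24 h nevertheless lay below both T0 libraries. In BT474R none of the 6 was called at 1 h or 12 h (2.24% and 1.13%), and H19 and IGF2R were called at 24 h (13.7%). The tests of a difference in ligand effect between the lines called H19 for HRG at 12 h and 24 h (4.07% and 3.33% of all genes) and none of the 6 at 1 h (0.138% for EGF and 0.544% for HRG) or for EGF at 12 h (1.96%), and the background for EGF at 24 h was 4.01%. A change of effect from 12 h to 24 h was called in 0.517% (EGF) and 2.50% (HRG) of genes in BT474 and 0.185% and 0.0288% in BT474R. None of the 6 was called for these changes from 12 h to 24 h with HRG in either line or with EGF in BT474R, and the change with EGF in BT474 holds the values that chose H19, so no call of H19 is read from it.

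Genes around H19 and IGF2 on 11p15.5 formed a first comparison list of 21 names, of which 17 were tested in BT474 and 18 in BT474R. Among all genes tested, those called up and down numbered 2273 and 1757 (EGF, 12 h), 3332 and 3150 (HRG, 12 h) and 3155 and 2907 (HRG, 24 h) in BT474, and 1664 and 1246 (EGF, 12 h), 579 and 421 (HRG, 12 h), 2417 and 1791 (EGF, 24 h) and 459 and 216 (HRG, 24 h) in BT474R, and the counts of every list below stand beside these and beside the shares given above. In the 11p15.5 list in BT474, EGF at 12 h raised 5 and lowered 1, HRG at 12 h raised 7 and lowered 1, and HRG at 24 h raised 5 and lowered 1. In BT474R none were lowered, while EGF at 12 h raised 5, HRG at 12 h raised 2, EGF at 24 h raised 8 and HRG at 24 h raised 2. The median log2 value of the list was 0.17, 0.20 and 0.48 in the first 3 and 0.42, 0.45, 0.25 and 0.12 in the last 4, against -0.03 to 0.01 for all genes tested. PHLDA2, an imprinted growth-restraining gene of the placenta, and TH, the tyrosine hydroxylase gene just beyond IGF2, led in each. With HRG, PHLDA2 rose by log2 1.82 ± 0.11 at 12 h and 1.29 ± 0.11 at 24 h in BT474, and by 1.07 ± 0.14 and 0.58 ± 0.16 in BT474R (largest adjusted p = 0.0453). TH rose by 0.78 ± 0.24 and 2.01 ± 0.22 in BT474 and by 0.87 ± 0.11 and 0.57 ± 0.10 in BT474R. Between the lines at T0, 9 of the 17 were higher and 1 lower in BT474R (median log2 0.44 against 0.00 for all genes, of which 46.9% were called, 6196 higher and 5358 lower), with TH up by 2.26 ± 0.18, PHLDA2 by 1.04 ± 0.17, and MRPL23-AS1, which lies next to H19, by 2.99 ± 0.44. MRPL23-AS1 was at 0.0941 to 0.483 CPM in BT474 libraries and 1.39 to 4.19 CPM in BT474R libraries. Another row of that name, MRPL23-AS1_1, overlapped between the lines. It was at 0.192 to 1.14 CPM in BT474 and 0.0600 to 1.03 CPM in BT474R (medians 0.535 and 0.527). None of the named line differences approached the size of the H19 or IGF2 difference.

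Imprinted genes of other loci also differed between the lines, in both directions. Of 17 tested of 21 listed, 9 were higher and 5 lower in BT474R at T0, with a median log2 value of 0.91 against 0.00 for all genes and 46.9% of all genes called. The neighbours DLK1 and MEG3 of the imprinted cluster on 14q32, an arrangement of a growth regulator beside a noncoding RNA much like IGF2 and H19, had 1 and 1 counts and 0 and 0 counts in BT474, at or under the 3-count limit, and 243 and 292 counts and 89 and 99 counts in BT474R, which makes DLK1 at least 96.3-fold and MEG3 at least 34.0-fold higher there. PEG10 and SGCE, which share a promoter region on 7q21, were higher by 3.07 ± 0.09 and 3.15 ± 0.12, while SNRPN and PEG3 were lower by -3.56 ± 0.46 and -2.46 ± 0.26. With ligand in BT474R, 3 were higher and 1 lower after 12 h of EGF, 4 and 1 after 24 h of EGF, and 1 and 1 after 12 h of HRG, with none called after 24 h of HRG. There, DLK1 rose with EGF by 0.56 ± 0.10 at 12 h and 0.58 ± 0.10 at 24 h, and MEG3 by 0.68 ± 0.15 at 24 h. GRB10, an adaptor that restrains insulin and IGF receptors, fell in BT474R at 12 h, by 0.63 ± 0.06 (EGF) and 0.43 ± 0.06 (HRG). GRB10 was also lower in BT474, with log2 values of -0.26 ± 0.05 (EGF, 12 h) and -0.63 ± 0.05 (HRG, 24 h). Among the others called in BT474 at 12 h, PEG10 rose by 0.45 ± 0.05 (EGF) and 0.46 ± 0.05 (HRG). MEST rose by 0.33 ± 0.06 (EGF) and 0.48 ± 0.06 (HRG), and SGCE by 0.51 ± 0.15 (HRG). After 24 h of HRG, PEG3 (0.57 ± 0.12) and MEST (0.25 ± 0.06) were higher in BT474.

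Among genes of the IGF axis (23 listed, 20 tested in BT474 and 19 in BT474R), those that moved with ligand did so in both directions, where 16.0% (EGF, 12 h), 25.8% (HRG, 12 h) and 24.1% (HRG, 24 h) of all genes were called in BT474 and 12.0%, 4.12%, 17.3% and 2.78% (EGF and HRG at 12 h, then at 24 h) in BT474R. In BT474, EGF at 12 h raised 3 and lowered 3, HRG at 12 h raised 5 and lowered 6, and HRG at 24 h raised 3 and lowered 5. In BT474R, 5 were higher and 3 lower after 12 h of EGF, 6 and 3 after 24 h of EGF, 3 and 3 after 12 h of HRG, and 0 and 1 after 24 h of HRG. IGFBP3, the main carrier of IGFs in serum, fell in BT474 by 1.69 ± 0.23 with EGF and 1.76 ± 0.22 with HRG at 12 h, and in BT474R by 1.54 ± 0.19 and 1.30 ± 0.18. STC1, an inhibitor of the proteases that release IGFs from their binding proteins, rose by 1.05 ± 0.33 and 1.13 ± 0.32 in BT474 at 12 h and by 1.40 ± 0.18 with EGF in BT474R. IRS2, a docking protein of the insulin and IGF1 receptors, rose in BT474R by 1.70 ± 0.11 with EGF and 0.86 ± 0.12 with HRG at 12 h. At T0, 4 of 20 were higher and 8 lower in BT474R, with the receptor gene IGF1R lower by -1.52 ± 0.07, IRS1 by -1.68 ± 0.09, IGFBP5 by -2.51 ± 0.09 and IGFBP2 by -0.90 ± 0.06, and STC1, IRS2 and the insulin receptor gene INSR higher by 5.08 ± 0.33, 1.82 ± 0.18 and 0.58 ± 0.08. The median log2 value of the list was -0.84 at T0, against 0.00 for all genes, of which 46.9% were called.

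The remaining lists followed the proteins that control or use these RNAs, and their counts are to be read beside the 16.0% (EGF) and 25.8% (HRG) of all genes called at 12 h in BT474 and the other shares above. Of 14 regulators of imprinting and of H19 transcription, either ligand raised 5 and lowered 1 at 12 h in BT474, led by E2F1 (0.59 ± 0.07 and 0.64 ± 0.07), a factor known to activate the H19 promoter, and UHRF1 (0.45 ± 0.06 and 0.62 ± 0.06), which maintains DNA methylation. After 24 h of HRG the numbers were again 5 and 1, and in BT474R 2, 3, 4 and 2 were higher and none lower (EGF and HRG at 12 h, then at 24 h). CTCF was lower in BT474R at T0 by -0.42 ± 0.07, and DNMT3A and E2F1 were higher by 0.82 ± 0.07 and 1.02 ± 0.08. Like MYC below, they were picked after their values were seen, and 46.9% of all genes were called between the lines at T0. Of the 11 to 12 tested mRNAs that IGF2BP proteins are known to bind, EGF raised 6 and lowered 0, and HRG raised 6 and lowered 1 at 12 h in BT474, with CCND1 up by 0.44 ± 0.04 and 0.69 ± 0.04, while in BT474R MYC rose by 2.02 ± 0.18 with EGF and 1.21 ± 0.19 with HRG. In BT474R, 5 of the bound mRNAs were higher and none lower after 12 h or 24 h of EGF, 2 and 0 after 12 h of HRG, and after 24 h of HRG the one call was CD44, a cell adhesion receptor, which fell by 0.82 ± 0.15 (adjusted p = 0.00454). In BT474, 3 were higher and 2 lower after 24 h of HRG. MYC was lower in BT474R at T0 by -3.64 ± 0.12. Of 12 tested genes of the LIN28 and let-7 axis, EGF raised 3 and lowered 1, and HRG raised 4 and lowered 2 at 12 h in BT474, with the host transcript MIR99AHG down by 0.50 ± 0.11 and 0.57 ± 0.11. Of the 17 m6A genes, writers, erasers and readers of the RNA mark that IGF2BP proteins also read, EGF raised 0 and lowered 2, and HRG raised 3 and lowered 2, with ZC3H13, a part of the writer complex, falling by 0.23 ± 0.05 and 0.15 ± 0.04. Of 23 genes of mannose 6-phosphate sorting, the route that IGF2R serves, EGF raised 2 and lowered 2, and HRG raised 3 and lowered 5 at 12 h in BT474, GNPTAB, which makes the tag, falling by 0.30 ± 0.05 and 0.35 ± 0.05. After 24 h of HRG in BT474 the numbers higher and lower were 3 and 1 for the LIN28 list, 2 and 3 for the m6A list and 3 and 7 for the sorting list. In BT474R the same 3 lists had 0 and 1, 1 and 0, and 1 and 2 after 12 h of EGF, 2 and 0, 0 and 0, and 0 and 1 after 12 h of HRG, 3 and 1, 1 and 0, and 2 and 5 after 24 h of EGF, and 1 and 0, 1 and 0, and 0 and 0 after 24 h of HRG.

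The genes whose group means over the 10 groups of a line were most like those of each member were found by Pearson's r of log2 CPM, given as a description over 10 groups that share vehicle libraries and depth. In BT474R the gene most like H19 was LOC102724852 (r = 0.9997), the row noted above for its constant ratio to H19, followed by BTG3 (0.992), ITPR3 (0.989), BSPRY (0.989) and PPP1R1B (0.989). In BT474 they were EFCAB8 (0.988), EIF3D (0.985), CHCHD2 (0.982), NSD2 (0.977) and SSRP1 (0.977). Their span was small beside that of H19, EFCAB8 going from 1.11 to 2.21 log2 CPM between its lowest and highest group and EIF3D from 6.82 to 7.25. Among the nearest to IGF2 in BT474R was FMNL3 (0.977). For IGF2R they were PRKDC (0.984) and ZNF106 (0.980) in BT474 and FRYL (0.982) and LRP1 (0.975) in BT474R, and for IGF2BP1 CAPN15 (0.975) and TMEM9 (0.969) in BT474 and HGFAC (0.953) and CLPP (0.941) in BT474R. No name was shared between the lines.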

How the data were processed

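The authors deposited raw counts per gene from poly(A) RNA libraries of 40 samples. Per the paper's methods and the submitters' processing notes, reads were trimmed with Trim Galore 0.6.6, aligned to GRCh38.p13 with Rsubread and counted with featureCounts. The annotation release, strand setting and treatment of multi-mapped reads are not given in the sources used here. From the 44584 rows, 9125 without a count and 5078 that repeat a gene name with a number were noted, and genes with at least 1 count in 50% of the libraries of a fit were tested.

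Counts were tested with the edgeR 4.0.16 quasi-likelihood F test in R 4.3.3, with TMM scaling. P-values were adjusted by Benjamini-Hochberg across every gene in the fit, and called under 0.05. Each line was fitted on its 20 libraries (25146 genes in BT474, 24287 in BT474R), and line comparisons on all 40 (24641 genes). Standard errors are the log2 value divided by the root of F. A gene at or under 3 counts in every library of a group has only a lower bound, against 3 counts per library, which covers counting error only. Replicates were grouped by the labels. The scripts were tested on simulated data. DESeq2 1.42.0, other filters, scalings and sample sets, and leaving out each library were alternatives. The named genes were the 6 members, the rows overlapping them, up to 3 genes per list with the largest change among those called at 12 h or 24 h with a mean of at least 1 CPM, and the 5 (H19) or 2 (others) with the highest correlation to a member. One gene that this rule names is not reported here. List genes named for the lines at T0, MRPL23-AS1, LINC01219 and the marker genes were chosen after their values were seen. The 6 genes, the lists and the tests were chosen with earlier results of these data known.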

Additional observations from a re-analysis of the deposited data

Results flagged for a closer look

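The response of H19 to HRG differed between the lines by the test of the difference itself. At 12 h the log2 effect was 2.75 ± 0.21 in BT474 and 0.87 ± 0.13 in BT474R, a difference (BT474R minus BT474) of -1.90 ± 0.31 with an adjusted p of 1.24e-04 in edgeR. At 24 h it was 3.48 ± 0.19 and 0.92 ± 0.13, a difference of -2.59 ± 0.29 with an adjusted p of 1.36e-07. This 24 h test shares its BT474 vehicle libraries with the contrast that chose H19, whereas the 12 h test does not. In CPM the order was the opposite, with a mean at 24 h of 65.4 in HRG-treated BT474 against 5.83 in its vehicle, and of 6624 in HRG-treated BT474R against 3522 in its vehicle. With 2 libraries a group, no group was large enough for a test of single outlying libraries.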

How the results depend on the processing

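No tested value of the 6 genes that was called changed direction under any alternative run, and all 34 tested H19 values kept their side of the threshold when H19_1 was added to H19, an alternative chosen after seeing the data. Fitting the replicate number as a block changed no call (H19 with HRG at 24 h in BT474 was 3.48). Same-numbered libraries had correlations of -0.083 to 0.422 in their deviations, and with 2 pairs a comparison they were taken to share only a number. DESeq2 size factors changed no call and moved the median of all genes by at most 0.043.

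H19 calls that were lost were HRG against EGF at 12 h in BT474 (0.64 with DESeq2, 0.64 with filterByExpr, 0.66 with 1 fit of both lines), HRG against EGF at 24 h in BT474R (-0.47 with DESeq2, -0.46 with filterByExpr, -0.47 with only the groups compared), and HRG at 24 h in BT474R with only the groups compared (0.90). For IGF2 it was HRG at 12 h in BT474R with only the groups compared (0.62). For IGF2BP1 it was HRG at 12 h in BT474 with DESeq2 (0.64), and for IGF2R it was HRG at 12 h (0.18) and 24 h (0.22) in BT474 with 1 fit of both lines. The 11 calls gained without a filter on low counts were H19 vehicle at 12 h (-0.67) and 24 h (-0.37) against T0 and the HRG change from 12 h to 24 h (0.73) in BT474, H19 with HRG at 1 h (0.15), H19 HRG against EGF at 12 h (-0.28), the H19 EGF change (0.20) and IGF2 with HRG at 24 h (0.34) in BT474R, the H19 EGF difference between the lines at 12 h (-0.95), IGF2BP1 with HRG at 1 h in BT474 (-0.88), IGF2 vehicle at 1 h against T0 in BT474R (-0.24) and the IGF2R HRG difference between the lines at 24 h (-0.31). The 8 calls gained with only the groups compared were H19 vehicle at 12 h against T0 (-0.67), the HRG change in BT474 (0.72), the H19 EGF difference between the lines at 12 h (-0.96), IGF2R with EGF at 12 h in BT474 (0.10) and BT474R (0.13), IGF2R vehicle at 24 h in BT474 (0.12) and at 1 h in BT474R (0.12) against T0, and IGF2 vehicle at 1 h against T0 in BT474R (-0.24). The cause was not tested.

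Leaving out 1 library at a time gave these ranges. For H19 they were 3.01 to 3.81 for EGF at 24 h in BT474, 0.36 to 0.97 and -0.34 to 0.46 for HRG against EGF at 12 h and 24 h in BT474, 0.90 to 1.70 for the EGF change in BT474, -0.71 to -0.26 for HRG against EGF at 24 h in BT474R, 0.31 to 0.70 for the 24 h vehicle against T0 in BT474R, and -2.42 to -1.63 for the EGF difference between the lines at 24 h. For IGF2 in BT474R they were 0.37 to 0.74 and 0.47 to 0.84 for EGF and HRG at 12 h, and 0.27 to 0.74 and 0.13 to 0.62 at 24 h. Where a group kept 1 library, it was assumed to vary like the others. In all, 865 of 908 such values kept their side of the threshold, 35 lost and 8 gained a call. Many of the 908 belonged to results with no call, which kept their side by staying uncalled. The 35 losses all fell on called results, so 865 does not measure how firm the calls were.

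The number of all genes called moved by over 1.5 times in 2 of 38 comparisons with DESeq2, 15 without a filter, 14 of 28 with 1 fit of both lines and 22 of 38 with only the groups compared. With HRG in BT474R at 24 h it was 675, against 1147, 1137 and 0 in the last 3, and at 12 h 1000 against 1577, 1606 and 566. The 20 names most like a member stayed the same with a prior count of 0.5. IGF2 in BT474 (0 to 2 counts) and IGF2BP3 (0 to 6 counts) were limited by depth.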

Other observations

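LOC102724852 had 1542 to 8849 counts in BT474R libraries and 2 to 69 in BT474 libraries. It kept 3.57 to 3.83 reads for every 100 H19 reads in BT474R, a narrower range than that of H19_1 (4.55 to 5.98). MIR483, a microRNA gene inside IGF2, had 45 reads over the BT474R libraries and 1 over those of BT474. AIRN, the noncoding antisense RNA of IGF2R, had 13 and 18 reads in all in BT474R and BT474, with at most 3 in a library. LINC01219, which lies between MRPL23-AS1 and H19, had 0 to 6 counts in BT474 libraries and 6 to 24 in BT474R libraries.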
